A study of Mus musculus with 6 samples.

Results

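Transcripts of the interleukins and their receptors were compared between 2 groups of mice with TGF-β1 induced renal fibrosis. Members were the genes whose array symbol starts with Il and a digit, leaving out Il6, Il6ra, Il6st and Il11. On probe sets that carry 1 symbol, this gave 80 genes among 20416 measured genes. The 80 genes rested on 744 probe sets, with a median of 8 per gene and a range of 1 to 26. The comparison was between 3 arrays labelled B6-TGFbeta (replicates 1, 2 and 3) and 3 arrays labelled CBAxB6-TGFbeta (replicates 4, 5 and 6), names that stand for an inbred mouse strain and a cross with it. Every array carries TGFbeta and induced renal fibrosis in its labels, so there is no group without it. The labels add the words WT to the first group and KO to the second without naming a deleted gene. EGR2 is named in the series title, but the labels do not say that it is the gene meant. The background and any such genotype cannot be told apart. The labels give littermate cohorts matched for age and sex but no tissue, no age and no sex. They give no promoter of the TGF-β1 source and no word on whether each array is a separate animal. If arrays were not separate animals, the p-values measure only the spread between these samples.

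Interleukins are secreted signals of immune and tissue cells. Those of the IL-1 family bind receptors that share an intracellular domain with the Toll-like receptors and act through MyD88 and NF-κB, and they are held in check by a receptor antagonist, a decoy receptor and a binding protein. Most other interleukins act through paired receptor chains, JAK kinases and STAT factors. In the injured kidney, IL-1β and IL-33 are known as signals of inflammation and tissue damage, and IL-15 is made by tubular cells. A symbol that starts with Il does not always name an interleukin or its receptor. Il8ra and Il8rb are older names of the chemokine receptor genes Cxcr1 and Cxcr2, Il28a, Il28b and Il28ra are older names of the interferon lambda genes Ifnl2, Ifnl3 and Ifnlr1, and Il4i1 encodes an amino acid oxidase.

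Kidney as the tissue was taken from the word renal in the labels and checked against tubule genes. Over 11 of them, such as Umod and Slc34a1, the mean log2 intensity was 11.39 to 11.61 in B6-TGFbeta and 10.08 to 10.46 in CBAxB6-TGFbeta. Among the 11, 9 were lower in CBAxB6-TGFbeta, against 4.57% of all genes. B6-TGFbeta replicate 2 stood apart in markers of neighbouring tissue. The mean of 8 adrenal genes was 8.41 in that array, 6.51 in replicate 1 and 5.59 to 5.69 in the other arrays. The mean of 11 fat genes was 8.14 in replicate 2 and 6.49 to 6.82 elsewhere. Values or calls without replicate 2 are given for Il33, Il2rg and the members whose call ended without it.

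In CBAxB6-TGFbeta kidneys 3 of 9 IL-1 family ligands, 2 of 3 inhibitors and 4 of 7 receptors were higher, while the 32 members of the IL-10, IL-12 and IL-17 families did not pass. At an adjusted p under 0.05 (limma with Benjamini-Hochberg adjustment over all genes), 12 of the 80 genes passed, 11 of them higher and 1 lower, and 68 did not. Without B6-TGFbeta replicate 2, 7 were higher and 0 lower, and these 7 are among the 12. The share that passed was 15%, against 7.65% of all genes. At the latter share few of any 32 genes would pass. The share that was higher was 13.75%, against 3.08% of all genes, and 4.57% of all genes were lower. The median log2 difference, CBAxB6-TGFbeta minus B6-TGFbeta, was 0.10 over the 80 genes and 0.02 over all genes. In the IL-1 family 9 of 19 genes passed (47.4%), all of them higher, and outside it 3 of 61 passed (4.92%). The members were chosen with earlier results of these data known, so these shares are descriptions and no test. The groups did not overlap in 27 of the 80 genes (33.8%), against 26.8% of all genes. Of the genes that did not pass, 54 had a 95% interval that lay within -0.5 to 0.5, and the intervals of Il34 and Il4ra reached past 1. Among the 80 genes, 32 were dim, meaning a mean intensity in the lowest 25% of all genes, under 5.73 on the log2 scale, and 4 of these 32 passed.

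**Figure D1:**
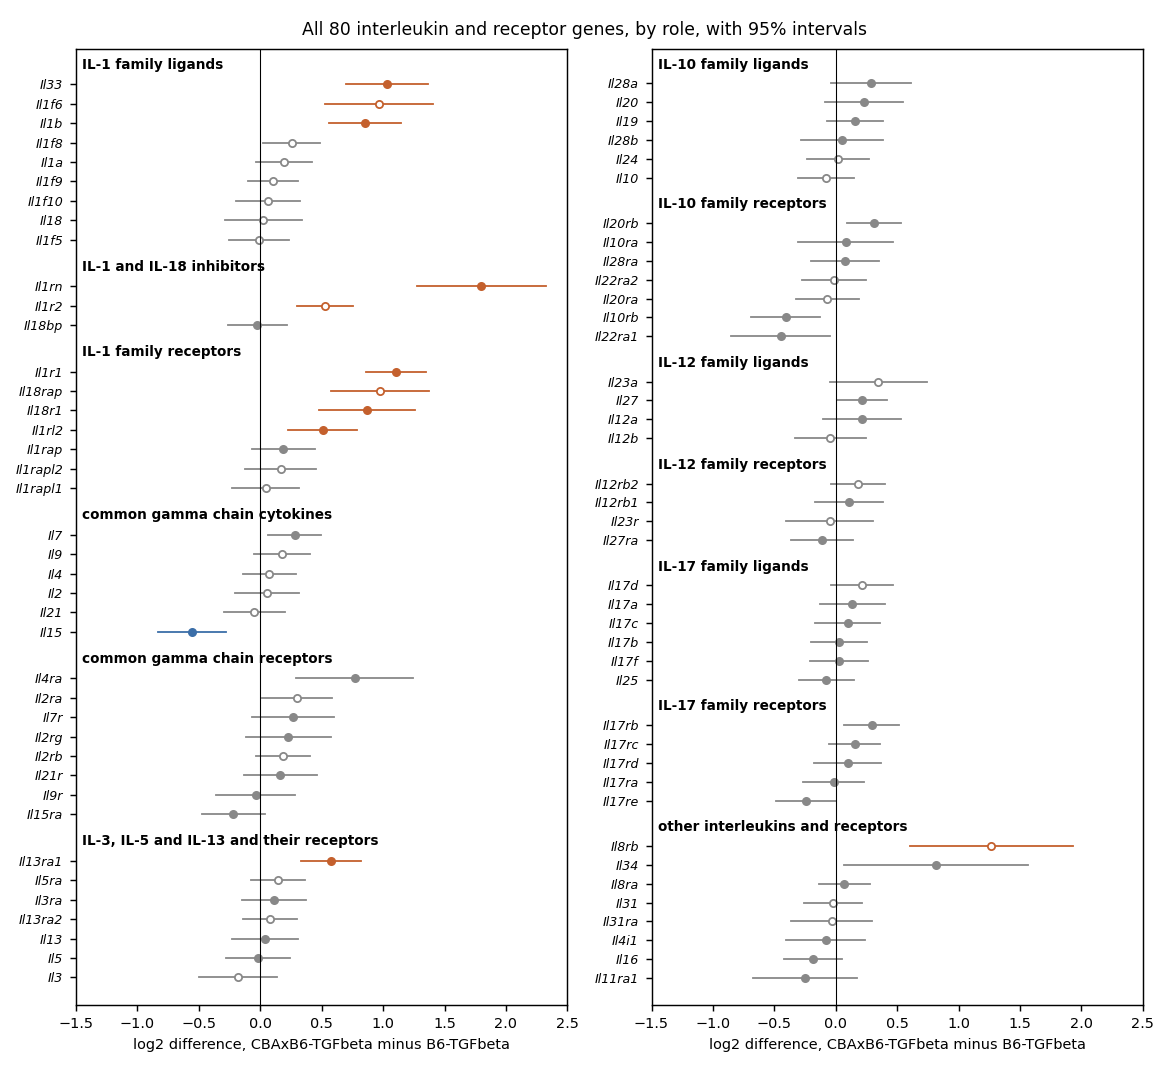
Log2 difference between the groups (x axis) for each of the 80 genes, grouped by role, with 95% intervals from limma as lines. Orange genes were higher and blue ones lower at an adjusted p under 0.05, grey ones did not pass, and open points are dim genes. Of the 12 coloured points, 9 lie in the groups of IL-1 family ligands, inhibitors and receptors.

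Among the IL-1 family ligands, Il1b, Il33 and Il1f6 were higher and 6 of 9 did not pass. Il1b, which encodes the inflammatory cytokine IL-1β, stood at 5.96, 6.15 and 6.05 in B6-TGFbeta replicates 1, 2 and 3. It stood at 7.004, 6.65 and 7.07 in CBAxB6-TGFbeta replicates 4, 5 and 6. The gap between the groups, 0.49, was wider than the range within either of them, 0.19 and 0.43, and the log2 difference was 0.85 (SE 0.13, adjusted p 0.00551). That is 1.81-fold on the linear scale. Il33 encodes a nuclear cytokine released by damaged cells. It stood at 7.52, 8.12 and 7.86 in B6-TGFbeta and at 8.78, 8.96 and 8.85 in CBAxB6-TGFbeta. The difference was 1.03 (SE 0.15, adjusted p 0.00425), or 2.04-fold. The highest B6-TGFbeta value of Il33 was in replicate 2, the array with fat and adrenal signal, and without it the difference was 1.17 (adjusted p 0.00357).

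Il1f6, also known as Il36a, encodes IL-36α, a cytokine of stressed epithelium. Its values were 4.80, 4.84 and 4.95 in B6-TGFbeta and 6.27, 5.36 and 5.86 in CBAxB6-TGFbeta. The groups did not overlap, the spread was wider in CBAxB6-TGFbeta (SD 0.46 against 0.07, n = 3 each), and the difference was 0.97 (SE 0.20, adjusted p 0.0195). Il1f6 is a dim gene and lost its call when B6-TGFbeta replicate 1, 2 or 3 was left out. The ligand genes Il1a, Il18, Il1f5, Il1f8, Il1f9 and Il1f10 had differences from -0.01 to 0.25. Il1f5, counted here with the ligands, encodes the antagonist of the IL-36 receptor. Il18 stood at 5.41 ± 0.25 in B6-TGFbeta and 5.43 ± 0.13 in CBAxB6-TGFbeta (SD, n = 3 each), with a 95% interval of the difference from -0.29 to 0.34.

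The largest difference of any member was in Il1rn, which encodes the IL-1 receptor antagonist. Its log2 intensities were 6.16, 6.15 and 6.43 in B6-TGFbeta and 8.66, 7.87 and 7.61 in CBAxB6-TGFbeta. All arrays of the second group lay at least 1.18 above all of the first, and the difference was 1.80 (SE 0.23, adjusted p 0.00259), or 3.48-fold. On the brightest probe set alone the difference of Il1rn was 0.14 (adjusted p 0.805), and with the dimmer 50% of its probe sets removed it was 1.16. Il1r2 encodes the decoy receptor, which binds IL-1 without signalling. It stood at 5.18, 5.16 and 5.11 in B6-TGFbeta and 5.54, 5.70 and 5.79 in CBAxB6-TGFbeta, with a mean in the dim range. The groups did not overlap, and the difference was 0.53 (SE 0.10, adjusted p 0.0153). The call of Il1r2 ended with replicate 1, 3 or 5 left out. Its brightest probe set gave -0.13 (adjusted p 0.901), and with its dimmer probe sets removed the difference was 0.89 and did not pass. Il18bp, which encodes the soluble inhibitor of IL-18, had a difference of -0.02 with a 95% interval from -0.26 to 0.22.

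Of the 7 signalling receptor genes of the family, 4 were higher. Il1r1, which encodes the receptor that IL-1α and IL-1β signal through, stood at 8.64, 8.75 and 8.82 in B6-TGFbeta. In CBAxB6-TGFbeta it stood at 9.86, 9.96 and 9.68. The groups were 0.86 apart with little spread inside either, and the difference was 1.10 (SE 0.11, adjusted p 0.000802), or 2.15-fold. Il1rl2 encodes the IL-36 receptor. It stood at 7.63, 7.60 and 7.64 in B6-TGFbeta and at 8.40, 8.002 and 7.99 in CBAxB6-TGFbeta. The difference was 0.51 (SE 0.13, adjusted p 0.0416), with CBAxB6-TGFbeta replicate 4 highest. Its call ended when any array other than CBAxB6-TGFbeta replicate 6 was left out.

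Il18r1 and Il18rap encode the binding and the signalling chain of the IL-18 receptor. Il18r1 stood at 5.71, 5.40 and 5.50 in B6-TGFbeta and at 6.77, 6.05 and 6.40 in CBAxB6-TGFbeta, a difference of 0.87 (SE 0.17, adjusted p 0.0182). Il18rap, a dim gene, stood at 4.57, 4.58 and 4.45 and at 5.93, 5.15 and 5.43, a difference of 0.97 (SE 0.18, adjusted p 0.0120). For both chains the order of the CBAxB6-TGFbeta arrays was the same, with replicate 4 highest and replicate 5 lowest. Il1f6 had that order as well, and so did the mean of the macrophage and monocyte markers given below. Both IL-18 receptor chains lost their calls when B6-TGFbeta replicate 1 or 3 was left out, Il18r1 also with replicate 2 left out. Their brightest probe sets gave 1.44 for Il18r1 and 0.11 for Il18rap, and neither passed. Il1rap, the chain that IL-1, IL-33 and IL-36 receptors share, had a difference of 0.19 with a 95% interval from -0.07 to 0.45. Il1rapl1 and Il1rapl2, receptors of the same family known from neurons, had 0.04 and 0.16 at dim values.

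**Figure D2:**
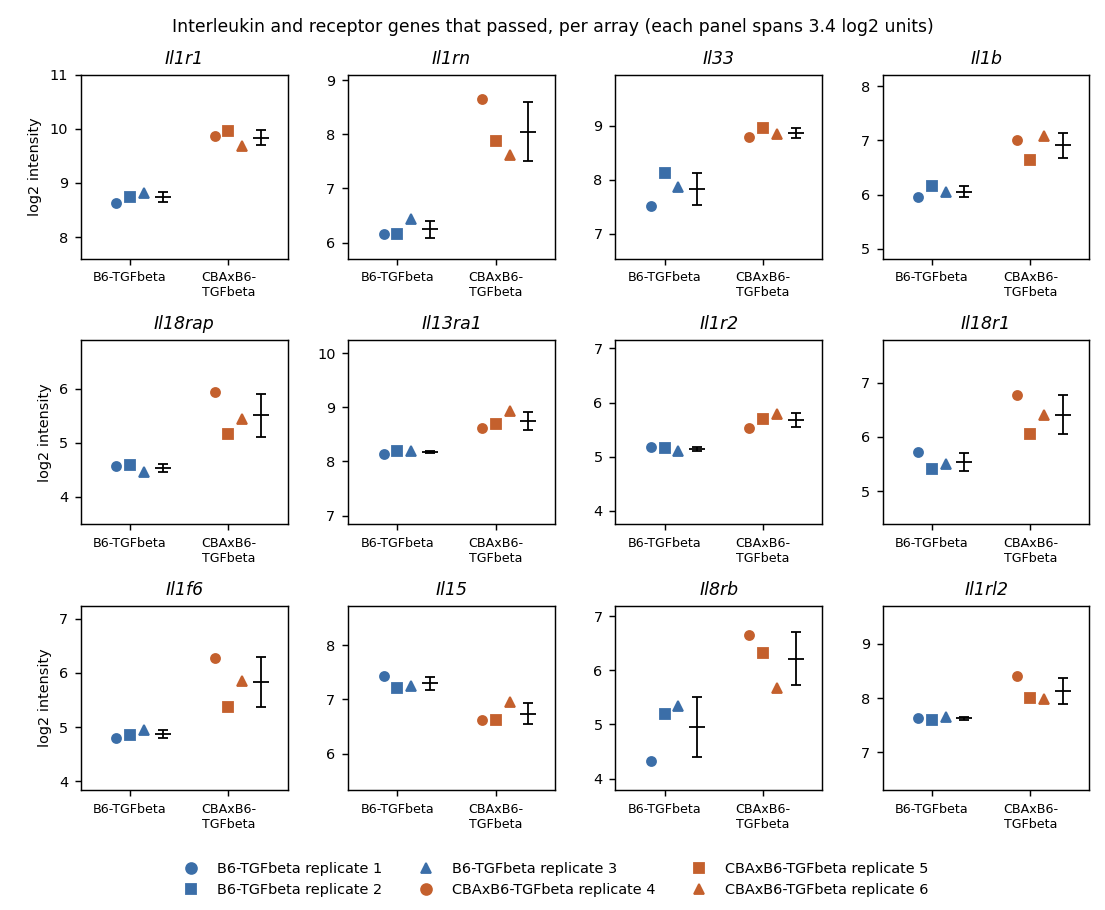
Log2 intensity (y axis) of the 12 genes that passed, per array, with mean and SD of 3 arrays per group as the bar beside the points. Every panel spans 3.4 log2 units around its own values, so heights of differences can be compared between panels but levels cannot. In each of the 12 genes the groups do not overlap, as in 26.8% of all genes. The 12 were chosen by the test on these same values, so this is no separate evidence.

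The IL-1 family receptor genes that were higher lie in 1 cluster with the decoy receptor gene. In RefSeq order among measured genes, Il1r2, Il1r1, Il1rl2, Il18r1 and Il18rap come after one another on chromosome 1, and all 5 were higher, by 0.51 to 1.10. Il1rl1, the gene of the IL-33 receptor, lies in the same cluster and was not analysed here. The 4 measured genes before this cluster, Rnf149, Creg2, 4933400N17Rik and Map4k4, had differences of 0.14 to 0.21 and did not pass. Of the 4 genes after it, Slc9a2 was lower (-0.45, adjusted p 0.0470), and Slc9a4, Mfsd9 and Tmem182 did not pass. In the cluster on chromosome 2 that holds the IL-36 genes and Il1rn, 2 of 6 members were higher, and Psd4, the next measured gene after Il1rn, was higher as well (0.41, adjusted p 0.0460). Il1a and Il1b lie together elsewhere on chromosome 2, and Il1a had a difference of 0.19 (SE 0.10, adjusted p 0.320). Among the 4 measured genes on either side of this pair, Slc20a1 (0.73, adjusted p 0.00892) and Sirpa (0.49, adjusted p 0.0199) were higher.

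**Figure D3:**
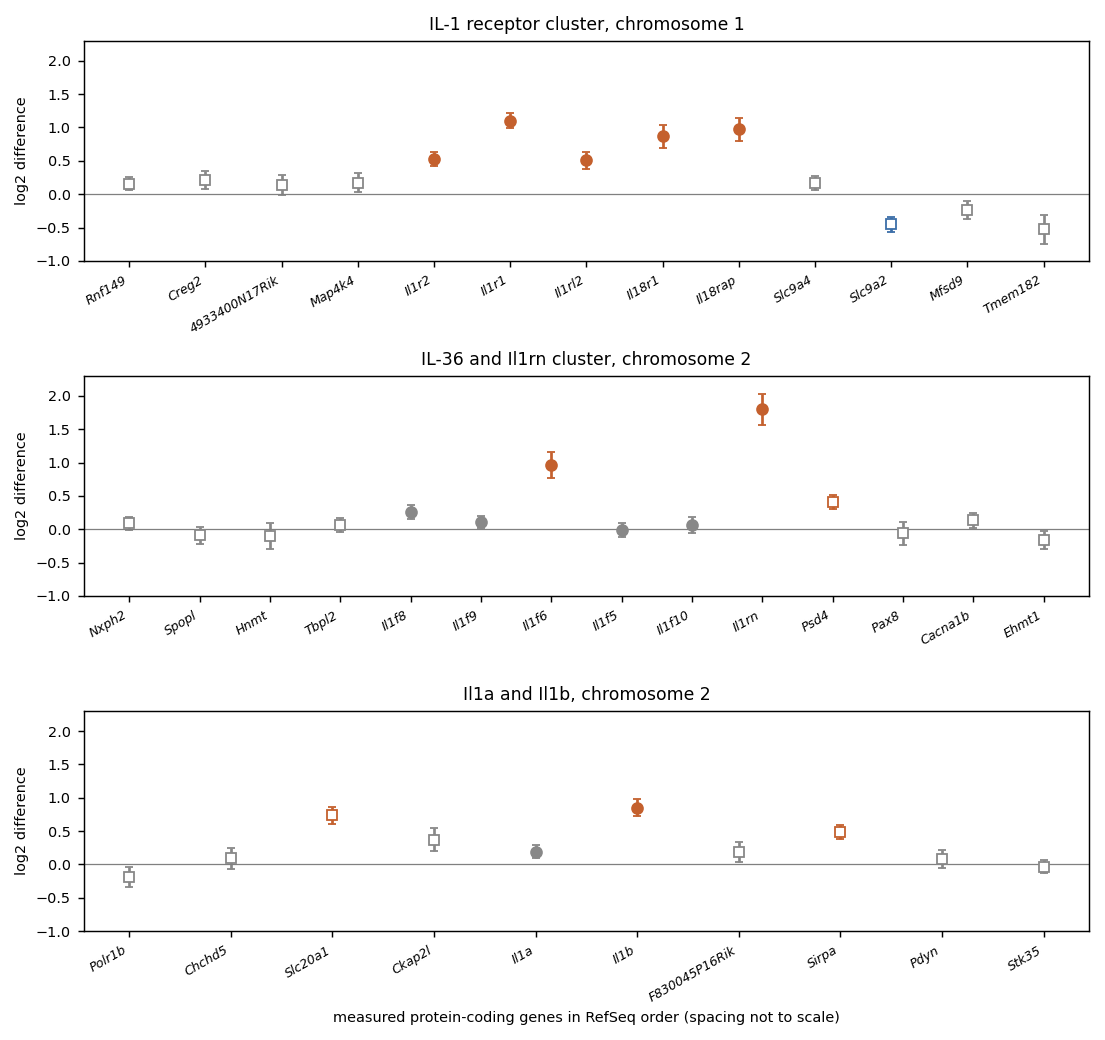
Log2 difference ± SE (y axis, CBAxB6-TGFbeta minus B6-TGFbeta) of neighbouring measured genes in RefSeq order (x axis, not to scale), with members as filled circles and other genes as open squares. Orange is higher, blue lower and grey did not pass. All 5 members in the chromosome 1 cluster are higher, and in the chromosome 2 clusters Il1f6, Il1rn and Il1b are, along with the neighbours Psd4, Slc20a1 and Sirpa.

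Promoters of the genes that passed were searched because 11 of the 12 were higher, with the 250 bases before each start taken from RefSeq (GRCm38.p6). Of the 12 genes, 10 matched an entry of the promoter table, with 16 start windows in all, and Il15 and Il1f6 did not. Both strands were searched for the κB motif (GGGA, any base, TTTCC), the AP-1 motif TGANTCA, the STAT motif TTCNNNGAA and the EGR motif GCGNGGGCG, the last because the series title names EGR2. The κB motif matched none of the 16 windows and 0.356% of all 32851 windows of this length. At that share a match in 16 windows was unlikely, and κB sites with other letters were not searched. The absence of a match therefore does not show that these genes lack κB sites. AP-1 matched 1 window (6.75% of all), STAT matched 2 (7.02% of all) and EGR matched 1 (4.7% of all). The 4 windows with a match are shown in gene orientation with the matched letters in capitals, AP-1 in Il1rn, STAT in Il1r2 and Il18r1, and EGR on the opposite strand in Il13ra1.
Il1rn, chr2:24336610-24336859, plus strand: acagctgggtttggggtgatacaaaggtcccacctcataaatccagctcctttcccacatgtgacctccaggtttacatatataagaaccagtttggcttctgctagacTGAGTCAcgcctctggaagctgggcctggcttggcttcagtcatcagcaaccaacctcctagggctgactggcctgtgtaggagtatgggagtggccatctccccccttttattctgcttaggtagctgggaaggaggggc
Il1r2, chr1:40085843-40086092, plus strand: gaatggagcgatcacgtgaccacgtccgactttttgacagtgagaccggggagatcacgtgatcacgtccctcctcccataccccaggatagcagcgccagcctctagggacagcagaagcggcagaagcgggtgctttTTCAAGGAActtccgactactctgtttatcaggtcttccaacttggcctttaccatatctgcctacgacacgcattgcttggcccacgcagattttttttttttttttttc
Il18r1, chr1:40465756-40466005, plus strand: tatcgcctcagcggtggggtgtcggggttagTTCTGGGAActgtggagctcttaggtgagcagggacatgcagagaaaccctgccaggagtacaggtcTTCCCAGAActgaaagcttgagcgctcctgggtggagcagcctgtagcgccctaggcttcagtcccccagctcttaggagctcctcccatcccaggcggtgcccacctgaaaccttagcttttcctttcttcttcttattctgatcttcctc
Il13ra1, chrX:36111858-36112107, plus strand: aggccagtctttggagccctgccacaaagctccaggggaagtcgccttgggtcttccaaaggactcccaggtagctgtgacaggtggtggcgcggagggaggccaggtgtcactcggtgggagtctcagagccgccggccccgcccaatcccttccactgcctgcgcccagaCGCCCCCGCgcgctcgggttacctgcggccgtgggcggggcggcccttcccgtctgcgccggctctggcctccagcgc
The AP-1 match of Il1rn begins 141 bases before the start. The STAT matches begin 111 bases before it in Il1r2 and 219 and 152 bases before it in Il18r1, and the EGR match begins 78 bases before it in Il13ra1. Il1rn and Il18r1 have other start windows without any of these letters. These are matches of letters in the reference sequence of C57BL/6J, and binding was not measured.

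Outside the IL-1 family, Il13ra1 was higher, Il15 was lower and Il8rb was higher. Il13ra1 encodes a receptor chain that binds IL-13 and pairs with the IL-4 receptor. It stood at 8.15, 8.18 and 8.19 in B6-TGFbeta and at 8.63, 8.68 and 8.93 in CBAxB6-TGFbeta. The groups did not overlap, and the difference was 0.57 (SE 0.11, adjusted p 0.0138), or 1.49-fold. The call ended when B6-TGFbeta replicate 1 or 3 was left out. The partner chain Il4ra stood at 7.48, 7.84 and 7.72 and at 8.88, 8.52 and 7.95. Its groups did not overlap and 15 of 15 probe sets were positive, but the difference of 0.77 (SE 0.21, adjusted p 0.0607) did not pass. It passed without CBAxB6-TGFbeta replicate 6, at 1.02 (adjusted p 0.00602), and also with centred arrays, the mean of probe sets, dim genes removed or array weights. The ligand genes Il4 and Il13 had differences of 0.07 and 0.04, with 95% intervals from -0.14 to 0.29 and from -0.23 to 0.31. The decoy receptor gene Il13ra2 had 0.08 at dim values.

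Il15 encodes a cytokine that sustains natural killer and memory T cells, and it was the single member that was lower. It stood at 7.43, 7.22 and 7.24 in B6-TGFbeta and at 6.63, 6.63 and 6.96 in CBAxB6-TGFbeta. The groups did not overlap, and the difference was -0.56 (SE 0.12, adjusted p 0.0270). Its call held when CBAxB6-TGFbeta replicate 6 was left out and ended when any other array was, with differences of -0.67 to -0.49 over the 6 fits. The 9 of 11 tubule genes that were lower moved in the same direction as Il15, and their part in its difference was not tested. Il15ra, which presents IL-15, had -0.22 (SE 0.11, adjusted p 0.315). The chains that IL-15 shares with IL-2, Il2rb and Il2rg, had 0.18 (dim) and 0.23, and Il2ra had 0.30 (dim). The IL-7 gene had 0.28 and its receptor Il7r 0.27, and neither passed. Il2rg stood at 9.41 in B6-TGFbeta replicate 2, the highest of the 6 arrays, and without that array its difference was 0.42 (SE 0.12, adjusted p 0.0841). The difference of Il2rg was 0.15 without B6-TGFbeta replicate 1 and 0.11 without replicate 3.

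Il8rb, now Cxcr2, encodes a chemokine receptor of neutrophils and rests on 3 probe sets at dim values. It stood at 4.33, 5.19 and 5.34 in B6-TGFbeta and at 6.65, 6.32 and 5.67 in CBAxB6-TGFbeta. The spread was wide in both groups (SD 0.55 and 0.50, n = 3 each), and the difference was 1.26 (SE 0.29, adjusted p 0.0332). Il8rb kept its call with CBAxB6-TGFbeta replicate 6 left out and lost it with any other array left out, or with trended and robust moderation. Il8ra, now Cxcr1, a related chemokine receptor gene, had 0.07 with a 95% interval from -0.14 to 0.28. Il34 encodes a ligand of the macrophage growth factor receptor Csf1r and is known to be made by tubular cells. It stood at 7.33, 7.22 and 7.86 and at 9.07, 8.24 and 7.54. The groups overlapped, CBAxB6-TGFbeta replicate 4 was highest, and the difference of 0.82 (SE 0.33, adjusted p 0.190) did not pass. It was 0.42 without replicate 4 and 1.19 without replicate 6, where it passed (adjusted p 0.0312).

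Of the 32 genes of the IL-10, IL-12 and IL-17 families none passed in limma, 5 had an unadjusted p under 0.05, and none passed in the fit without moderation. Of all 20416 genes, 7.65% passed, 4399 had an unadjusted p under 0.05 and 63 passed without moderation. At those shares few of any 32 genes would pass, so the lack of calls sets these families little apart. Differences ran from -0.45 to 0.31 over 13 IL-10 family genes, from -0.11 to 0.35 over 8 IL-12 family genes and from -0.24 to 0.29 over 11 IL-17 family genes. In the IL-10 family, Il10rb, the chain shared by receptors for IL-10, IL-22 and interferon lambda, stood at 8.84, 8.68 and 8.62 and at 8.52, 8.29 and 8.11. Among the 7 probe sets of Il10rb, 5 were lower and 2 higher, with differences from -0.90 to 1.07. The groups did not overlap, and the difference of the gene value was -0.41 (SE 0.12, adjusted p 0.0867). It passed without CBAxB6-TGFbeta replicate 4, at -0.51 (adjusted p 0.0390), and with array weights, while the mean of its probe sets gave -0.22 and its brightest probe set -0.90, neither of which passed. Il22ra1, the epithelial chain of the IL-22 receptor, stood at 6.86, 7.01 and 6.69 and at 6.75, 6.46 and 5.99, with a difference of -0.45 (SE 0.18, adjusted p 0.184). The groups overlapped, and without CBAxB6-TGFbeta replicate 6 the difference was -0.25, and the brightest probe set gave -0.89. Il10 itself had -0.08 at dim values. Il20rb, a chain of receptors for IL-19, IL-20 and IL-24, had 0.31 (SE 0.10, adjusted p 0.0939), with groups that did not overlap.

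In the IL-12 family, the largest difference was in Il23a, which encodes the specific subunit of IL-23. It stood at 5.46, 5.05 and 4.83 and at 5.36, 5.74 and 5.29. The groups overlapped at dim values, and the difference was 0.35 (SE 0.18, adjusted p 0.303). It was 0.52 without B6-TGFbeta replicate 1, 0.20 without B6-TGFbeta replicate 3 and 0.21 without CBAxB6-TGFbeta replicate 5, and its brightest probe set gave 0.09. Il12b, which encodes the subunit shared by IL-12 and IL-23, had -0.04. In the IL-17 family, the cytokine genes Il17a and Il17f had 0.13 and 0.03, and the receptor genes Il17ra and Il17rc had -0.02 and 0.15. Il17rb, a chain of the IL-25 receptor, had 0.29 (SE 0.10, adjusted p 0.122). Il17re, whose protein binds IL-17C, had -0.24. Among the type 2 genes outside these families, Il3, Il5 and Il5ra had -0.18, -0.02 and 0.15.

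Differences between single probe sets of a gene show how evenly a gene moved. All probe sets moved in the direction of the gene in Il1r1 (13 of 13), Il1rn (11 of 11), Il18rap (14 of 14), Il1rl2 (13 of 13), Il13ra1 (12 of 12) and Il15 (10 of 10). The same held for Il33 (8 of 8), Il1b (7 of 7), Il1f6 (7 of 7) and Il8rb (3 of 3). In Il1r2 7 of 9 and in Il18r1 13 of 16 were positive. The gene value is computed from these same probe sets, so they are no separate evidence. The size differed within genes. Il1rn ran from 0.14 to 3.26, Il18r1 from -0.71 to 2.35 and Il18rap from 0.11 to 2.10, while Il1b ran from 0.61 to 1.40 and Il13ra1 from 0.09 to 0.85. The lowest value of Il1rn, Il33, Il18rap and Il1r2 belonged to the brightest probe set of the gene, at 0.35 in Il33. On the brightest probe set alone, Il1r1, Il13ra1 and Il1f6 were the 3 of the 12 that passed. Whether sequence differences between the backgrounds under the probes play a part was not tested.

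**Figure D4:**
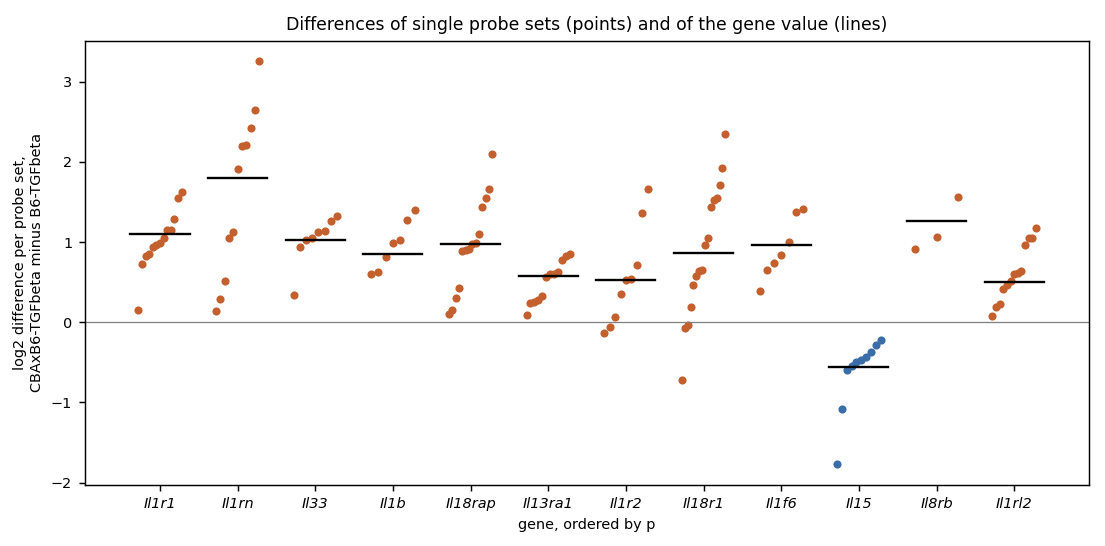
Log2 difference (y axis) of each probe set of the 12 genes that passed (points, sorted by size within a gene) and of the gene value (black lines). Orange genes were higher and the blue one lower. The points of Il1rn and Il18r1 spread over more than 3 log2 units, and those of Il15 are all below 0.

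Within CBAxB6-TGFbeta the arrays differed. Of the 11 genes that were higher, 6 had their highest value in replicate 4, namely Il1rn, Il18r1, Il18rap, Il1f6, Il1rl2 and Il8rb. Il1r1 and Il33 were highest in replicate 5, and Il1b, Il13ra1 and Il1r2 in replicate 6. In 9 of these 11 genes the range over 3 arrays was wider in CBAxB6-TGFbeta than in B6-TGFbeta, as it was in 51 of the 80 members and in 60.1% of all genes.

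Other genes of interleukin signalling were taken from 6 lists written by function with earlier results of these data known. Of their 76 measured genes, 13 were higher and 2 lower (19.7% passed, against 7.65% of all genes). Because of that choice, the share is a description and no test of the lists. Among 14 genes that signal from IL-1 and IL-18 receptors, Nfkbiz, an inducible NF-κB cofactor (0.91, SE 0.12), and Irak3, an inhibitory kinase-like protein (0.82, SE 0.20), were higher. The call of Irak3 ended when any B6-TGFbeta array was left out, or CBAxB6-TGFbeta replicate 5, and its brightest probe set gave 0.37. Sigirr, an inhibitory receptor of the family, was lower by a narrow margin (-0.38, SE 0.10, adjusted p 0.04995). Its call ended with any array left out, and its brightest probe set gave 0.11. The adaptor Myd88 had 0.37 (SE 0.23, adjusted p 0.399), with 0.11 without CBAxB6-TGFbeta replicate 4 and 0.64 without replicate 6, where it passed (adjusted p 0.0456). Of 11 genes that act in the maturation of IL-1 family cytokines, the inflammatory caspase Casp4 (1.55, SE 0.16), the DNA sensor Aim2 (0.92, SE 0.18) and the inflammasome sensor Nlrp3 (0.38, SE 0.09) were higher. Nlrp3 is dim and lost its call with any array left out, and Aim2 with B6-TGFbeta replicate 1 or 3 left out. Casp1, the protease that cleaves pro-IL-1β, had 0.55 (SE 0.22, adjusted p 0.187), with 0.34 without B6-TGFbeta replicate 1 and 0.35 without CBAxB6-TGFbeta replicate 4.

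Of 16 JAK, STAT and SOCS genes, Stat3 (0.64, SE 0.16) and Jak2 (0.50, SE 0.11) were higher and Stat2 was lower (-0.38, SE 0.10). Stat2 lost its call with any array left out, and Stat3 and Jak2 with any except CBAxB6-TGFbeta replicate 6. The brightest probe set of Stat2 gave -0.09. Of 11 partner chains and ligands without an Il symbol, the growth factor gene Csf1 was higher (1.05, SE 0.20), with a call that ended when replicate 1, 3 or 5 was left out. Csf2rb, the shared chain of receptors for IL-3 and IL-5, had 0.71 (SE 0.19, adjusted p 0.0501), and passed without CBAxB6-TGFbeta replicate 4 at 0.47 and without replicate 6 at 0.86. Of 13 genes induced by IL-4 and IL-13 in macrophages, Mrc1 (1.56, SE 0.18), Cd209a (0.83, SE 0.14) and Alox15 (0.54, SE 0.10) were higher, and Arg1 had 0.68 (SE 0.23, adjusted p 0.121). Arg1 passed without CBAxB6-TGFbeta replicate 4, at 0.96 (adjusted p 0.00859). Alox15 lost its call with B6-TGFbeta replicate 1 left out, and Mrc1 and Cd209a are also macrophage and dendritic cell markers. Retnla, a dim gene of this list, had -1.47 (SE 0.62, adjusted p 0.211) and stood highest in B6-TGFbeta replicate 2. Without that array it had -0.62 (adjusted p 0.354), and without replicate 3 it had -2.23 and was lower (adjusted p 0.0452). Brightest probe sets gave 0.92 for Mrc1, 0.25 for Cd209a and 0.25 for Alox15, and 0.66 for Csf1. Of 13 genes induced by IL-1 and IL-17, Lcn2 (2.17, SE 0.20), the neutrophil chemokine Cxcl2 (1.29, SE 0.17) and Nfkbiz were higher. Cxcl2 is a dim gene. The other 10 did not pass, with differences from -0.05 in Ccl20 to 0.78 in Cxcl1.

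Markers of the cells that could carry these transcripts moved with the groups to different degrees. In bulk kidney, fewer cells of a type and less RNA per cell cannot be told apart. Over all 20416 genes, 3.08% were higher, 4.57% were lower and 4399 had an unadjusted p under 0.05 in limma. Of 15 macrophage and monocyte genes, 9 were higher, and the others, from 0.16 in Ly6c2 to 0.51 in Fcgr1, did not pass. The mean log2 intensity of the list was 7.12 to 7.31 in B6-TGFbeta and 8.02 to 8.498 in CBAxB6-TGFbeta, highest in replicate 4. Of 10 dendritic cell genes, Itgax, Flt3 and Cd209a were higher, with list means of 6.21 to 6.42 and 6.57 to 6.66. The rest did not pass and ran from -0.27 in Zbtb46 to 0.33 in Itgae, with Xcr1 at -0.02, Clec9a at 0.15 and Ccr7 at 0.07. Of 10 neutrophil genes, Mmp8 and Retnlg were higher, with list means of 5.06 to 5.22 and 5.34 to 5.46. Of the 10, 7 were dim, among them Mmp8 and Retnlg themselves, Ly6g and S100a8. Those that were not dim, S100a9, Mpo and Csf3r, had 0.50, 0.03 and 0.08, and none passed. Of 13 T cell genes, Cd2 was higher by a narrow margin (0.41, SE 0.11, adjusted p 0.0496 in limma), with list means of 5.94 to 6.03 and 6.00 to 6.10. The other T cell genes did not pass and ran from -0.38 in Gata3 to 0.29 in Cd3g, with Cd8a at -0.27, Cd3e at 0.01 and Cd4 at 0.04. Of 7 NK cell genes none passed in limma, 1 had an unadjusted p under 0.05, 0 passed without moderation and 6 were dim, with list means of 4.63 to 4.74 and 4.73 to 4.88. Of 9 fibroblast genes, Col3a1 and Lum were higher, with list means of 9.14 to 9.28 and 9.54 to 9.89. Of 8 endothelial genes, Cdh5, Kdr and Tie1 were lower, with list means of 9.24 to 9.35 and 8.87 to 8.93, and all 8 had an unadjusted p under 0.05. The part of these cells in the differences of Il1b, Il1rn, Il1r1, Il18r1 and the other members was not tested.

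The calls of the members depended on how arrays were left out and how variances were estimated. Il1r1, Il1rn, Il33 and Il1b passed with each of the 6 arrays left out in turn. When the gene values were also summarised again from the 5 arrays left, a choice made after seeing the data, 0 of the 12 kept their call with B6-TGFbeta replicate 1 or 2 left out. Without B6-TGFbeta replicate 3 1 passed, without CBAxB6-TGFbeta replicate 4 or 5 2 passed, and without replicate 6 3 passed, while the difference of Il1r1 stayed at 1.01 to 1.14 and that of Il1rn at 1.49 to 1.92. Without moderation of the variances none of the 12 passed, and 63 of all genes did.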

How the data were processed

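For 6 Affymetrix arrays the authors deposited log2 intensities with 1 row per exon-level probe set. Per the submitters' processing notes the tools were RMA and Partek, with settings and array genome build not given in the sources used here. The median of an array was 7.27 to 7.34. Of 241576 rows, the 212097 with 1 symbol were combined into 20416 genes by median polish.

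Groups were compared with limma 3.58.1 in R 4.3.3 (1 group term, moderated variances, two-sided p, Benjamini-Hochberg over all genes, threshold 0.05). Values are mean ± SD over 3 arrays, whose number limits the precision. The calculation was tested on simulated data. Roles, marker and signalling lists are hand-written. The members and lists were chosen with earlier results of these data known. Full values are given for members that passed and for the 5 largest differences among the others. All 80 symbols matched the RefSeq gene table, 75 by its own symbol and 5 by a synonym. RefSeq tables (GRCm38.p6) gave names, gene order and promoters. Alternatives are other normalizations, gene summaries, filters and variance models, and each array left out with gene values kept or summarised again.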

Additional observations from a re-analysis of the deposited data

How the results depend on the processing

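Members higher numbered 11 and lower 1, out of 80. With each gene read from its brightest probe set, 4 were higher and 0 lower, and without moderation 0 and 0. Lower members numbered 0 with the dimmer 50% of rows removed and 2 with array weights. With an array left out and gene values kept, 4 to 13 members were higher and 0 to 1 lower. With gene values summarised again, a choice made after seeing the data, leaving out B6-TGFbeta replicates 1, 2 and 3 and CBAxB6-TGFbeta replicates 4, 5 and 6 in turn gave 0, 0, 1, 2, 2 and 4 higher and 0 lower each time. Signalling genes numbered 13 higher and 2 lower, against 6 and 0 on brightest probe sets and 1 and 0 without moderation. Lower signalling genes numbered 1 after a second quantile normalization and 0 with centred arrays, the mean of rows, or trended and robust moderation. With an array left out they were 6 to 15 and 0 to 1, and with gene values summarised again 0, 0, 1, 3, 0 and 6 higher and 0 lower. All genes numbered 628 higher and 934 lower, against 335 and 282 on brightest probe sets and 23 and 40 without moderation, 974 higher with array weights, and 184 to 689 higher and 310 to 861 lower with an array left out. With gene values summarised again, these were 23, 35, 21, 97, 46 and 219 higher and 36, 42, 36, 172, 71 and 335 lower, in the same order of arrays. Signs reversed in Il1r2 (-0.13) and Sigirr (0.11), both on brightest probe sets. The 12 members that passed kept their calls after a second quantile normalization, with centred arrays, the mean of rows and array weights. The cause of these changes was not tested. No paired analysis was possible because the groups share no replicate numbers. Arrays have no depth, and the 32 dim members have the least room above background.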

Other observations

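Probe sets that carry several symbols were outside the comparison. All 43 probe sets shared by Il11ra1, Il11ra2, Gm13305 and Gm2002, near-identical copies of the IL-11 receptor gene, were lower in CBAxB6-TGFbeta, with a median log2 difference of -0.45 and a range from -1.17 to -0.02. The 1 probe set assigned to Il11ra1 alone gave -0.25 (SE 0.19, adjusted p 0.505 in limma with Benjamini-Hochberg adjustment). Of the 5 probe sets shared by Il2rg and Gm614, 3 were positive, with a median of 0.43, and of the 12 shared by Il22 and Iltifb 9 were, with a median of 0.19. These values are descriptions with no test.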
